A study of Mus musculus with 6 samples.

Results

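The 10 genes described here are the troponins and the atrial myosin light chains of striated muscle, namely troponin T (Tnnt1, Tnnt2, Tnnt3), troponin I (Tnni1, Tnni2, Tnni3), troponin C (Tnnc1, Tnnc2) and the light chains Myl4 and Myl7. They were taken by gene name from the 54532 genes of the deposited table, and each name matched 1 row. The cells sequenced were immortalized cardiosphere-derived cells (iCDCs), a mouse line of strain C57BL/6 from heart ventricle. The study derived the line from epicardium, and the cells of every library carried a lentiviral human telomerase gene (hTERT) introduced under puromycin selection. Control libraries (n = 3) were from cells at passage 30. Induced libraries (n = 3) were from cells of the same passage given 10 µM 5-azacytidine for 3 days, followed per the labels by 4 weeks in IMDM with 2% fetal bovine serum. The methods of the study describe another basal medium and a shorter culture, and the medium and age of the control culture are not given for these libraries, so that drug, serum and time in culture cannot be told apart. All 6 libraries come from 1 immortalized line.

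Troponin is the calcium switch of the thin filament of striated muscle. Troponin C binds calcium, troponin I holds the filament off at rest, and troponin T ties both to tropomyosin, which covers the myosin sites on actin. Each subunit has isoforms that mark the fibre type: Tnnt2 and Tnni3 are the cardiac troponins T and I, Tnnt1 and Tnni1 those of slow skeletal fibres, and Tnnt3 and Tnni2 those of fast skeletal fibres. Tnnc1 serves heart and slow fibres, and Tnnc2 fast fibres. The light chains clasp the neck of the myosin head. Myl4 is the essential light chain of the atrium and of embryonic muscle, and Myl7 is the regulatory light chain of the atrium and the early heart. 5-Azacytidine is incorporated into nucleic acids and traps the enzymes that methylate cytosines standing before a guanine (CG). It has long been used to turn on muscle genes in cultured cells.

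Induced cells held more Tnnt2, Tnnt1 and Myl7 transcript than control cells, and no troponin or light chain was called lower. Tnnt2 rose 4.43-fold, Myl7 went from 0 reads in every control library to 20 or more in every induced library, and Tnnt1 rose from between 1 and 4 reads to between 11 and 31. The other 5 tested genes (Tnni3, Tnni1, Tnnt3, Tnnc1, Myl4) did not pass the test, and Tnni2 and Tnnc2 had too few reads to be tested. Of the 10 genes, 3 were therefore higher and 0 lower at an adjusted p under 0.05 in edgeR's quasi-likelihood test, against 64.8% of all 14246 tested genes called in either direction, 32.6% called higher and 32.2% called lower. The 3 called are 37.5% of the 8 tested genes, below the 64.8% called in either direction and slightly above the 32.6% called higher. Myl7 and Tnnt1 passed the filter on low counts through the induced libraries only, so the share called higher was partly set by the filter. In bulk RNA, more cells of a kind and more RNA per cell cannot be told apart.

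Total counts lay between 19041133 and 19823369 reads per library. Levels are given as CPM, counts scaled by TMM to library size. With 3 counts as the limit, 0 reads in a library allow 0.150 to 0.159 CPM, and limits and intervals on counts cover counting error only. Every pair of libraries within a group differed by more than sampling noise, with a chi-square per degree of freedom of 2.56 to 8.91, and the pairs with induced 2 held the highest values, 8.91 and 8.04. Nothing in the labels ties the 3 samples of a group to separate cultures beyond calling them separate, so p-values measure the spread between these samples. Induced 2 stood apart in some skeletal muscle genes, described below beside the genes concerned, and results that rest on it are given with and without it.

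**Figure D1:**
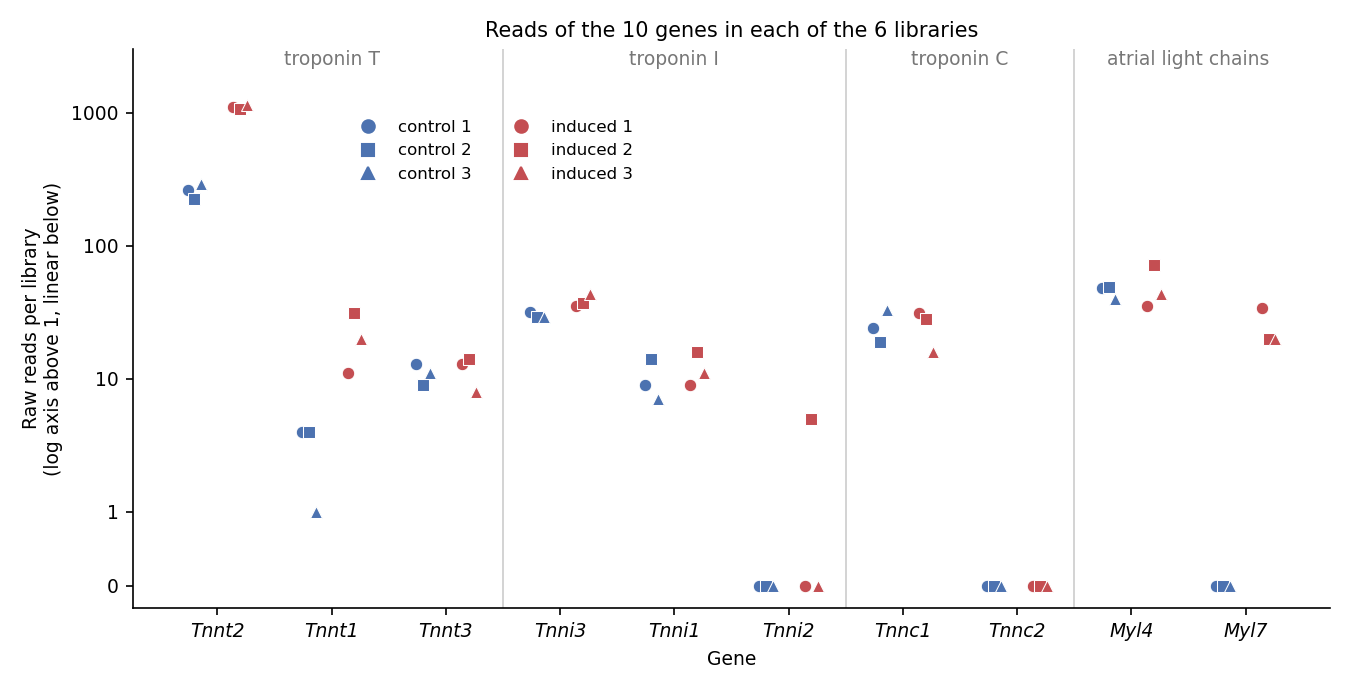
Raw reads of each of the 10 genes in the 3 control (blue) and 3 induced (red) libraries, on an axis that is logarithmic above 1 read and linear below. Tnnt2, Tnnt1 and Myl7 lie higher in all 3 induced libraries, Tnni2 has 5 reads in induced 2 alone, and Tnnc2 has 0 reads in all 6.

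The genes lie on 5 chromosomes, and 6 of them form 3 pairs of a troponin I and a troponin T gene. On chromosome 7, Tnnt1 and Tnni3 are 1922 bases apart with no gene between them. On chromosome 1, Tnni1 and Tnnt2 are 25364 bases apart with Lad1 between them, and on chromosome 7 Tnni2 and Tnnt3 are 54425 bases apart with Lsp1 between them. RefSeq start sites (GRCm38.p6) were found for 8 of the 10 genes, all but Tnnt3 and Tnni2. The 250 bases before the start are shown for the 3 genes that rose and for Myl4 and Tnnc1, the ends of the range of CG among genes that were read in both groups and did not pass the test. Each reads 5′ to 3′ on the strand of its gene, and capitals mark CG, the dinucleotide methylated by the enzymes that the drug traps. Methylation was not measured. The RefSeq start of Tnnt1 lies 407 bases inside the deposited bounds of the gene. That of Tnni3 lies 1701 bases inside, and the 2 starts of Tnni1 lie 19987 and 20077 bases inside.
Tnnt2, chr1:135836084-135836333, plus strand: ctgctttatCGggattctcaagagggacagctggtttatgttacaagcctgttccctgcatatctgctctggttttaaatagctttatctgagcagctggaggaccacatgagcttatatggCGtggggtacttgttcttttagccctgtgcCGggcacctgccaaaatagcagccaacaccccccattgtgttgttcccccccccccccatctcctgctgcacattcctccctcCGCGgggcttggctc
Myl7, chr11:5898783-5899032, minus strand: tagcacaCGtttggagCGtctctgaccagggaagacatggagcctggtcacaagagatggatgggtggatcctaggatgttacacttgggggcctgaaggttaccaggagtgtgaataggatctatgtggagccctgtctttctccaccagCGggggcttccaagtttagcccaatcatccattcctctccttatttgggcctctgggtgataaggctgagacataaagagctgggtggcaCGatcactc
Tnnt1, chr7:4515976-4516225, minus strand: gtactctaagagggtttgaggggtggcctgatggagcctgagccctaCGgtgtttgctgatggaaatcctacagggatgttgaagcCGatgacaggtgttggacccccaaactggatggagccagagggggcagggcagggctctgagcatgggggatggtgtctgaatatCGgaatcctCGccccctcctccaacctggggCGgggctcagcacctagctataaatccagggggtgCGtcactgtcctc
Myl4, chr11:104550413-104550662, plus strand: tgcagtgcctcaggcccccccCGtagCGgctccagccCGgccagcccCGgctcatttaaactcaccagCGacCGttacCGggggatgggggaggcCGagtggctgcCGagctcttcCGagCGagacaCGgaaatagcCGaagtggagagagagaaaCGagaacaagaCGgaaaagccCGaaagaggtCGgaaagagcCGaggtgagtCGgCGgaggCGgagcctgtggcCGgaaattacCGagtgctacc
Tnnc1, chr14:31208062-31208311, plus strand: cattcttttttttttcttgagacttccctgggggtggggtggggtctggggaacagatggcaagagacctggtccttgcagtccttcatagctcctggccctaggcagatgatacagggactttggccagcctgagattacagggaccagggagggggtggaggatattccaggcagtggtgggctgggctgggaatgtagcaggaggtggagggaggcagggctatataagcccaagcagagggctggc

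The windows of the 3 genes that rose hold 5 CG in Tnnt2, 4 in Myl7 and 6 in Tnnt1, against a median of 6 over 32851 RefSeq windows of the same length. A second RefSeq start of Tnnt2, with its window at chr1:135836739-135836988, has 0. Among the genes that were not called, the window of Myl4 has 23 CG, more than 86.7% of all windows, and that of Tnnc1 has 0, as have 7.87% of all windows. Tnni1, with 5 and 6 CG at its 2 RefSeq starts, and Tnni3, with 3, lie between these ends, and so does the untested Tnnc2, with 3. At these RefSeq starts, which for Tnni1 lie far inside the deposited gene, Tnni1 thus has as many CG as the genes that rose. The number of CG does not set these 2 sets of windows apart. The M-CAT box, searched as CATTCC on either strand, occurs once each in the first window of Tnnt2 and those of Myl7 and Tnnc1 and not in those of Tnnt1, Myl4, Tnni1, Tnni3 and Tnnc2, and 12.6% of all windows hold it. The E-box, searched as CANNTG, occurs 4 times each in the first windows of Tnnt2 and Tnni1, 2 times each in Tnnc1 and Tnnc2, once each in Myl7, Tnnt1 and Tnni3 and not in Myl4, and 66.2% of all windows hold it. TATAAA occurs once, in Tnnt1, and 12.4% of all windows hold it. Matches of the 3 motifs were counted separately, and a match is a run of letters, not a shown binding site.

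Tnnt2 (ENSMUSG00000026414, chromosome 1, 135836354 to 135852260, plus strand) had the most reads of the 10 genes in every library. It had 264, 223 and 291 reads in control and 1102, 1066 and 1142 reads in induced libraries. The induced libraries were close to each other, and the lowest lay far above the highest control library. Its level rose from 13.1 ± 1.62 to 58.2 ± 1.92 CPM (SD, n = 3), a log2 change of 2.15 (SE 0.08, 95% interval 1.98 to 2.32, edgeR's adjusted p = 4.90e-14). Over all alternatives the log2 change stayed between 2.05 and 2.24. Among all tested genes, 522 (3.66%) had a log2 change at least as high. Tnnt2 alone made up 93.5% of the reads that the 10 genes together gained, 2532 of 2709.

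Tnnt1, the slow skeletal troponin T (ENSMUSG00000064179, chromosome 7, 4504570 to 4516382, minus strand), had 4, 4 and 1 reads in control and 11, 31 and 20 reads in induced libraries. The groups did not overlap, but the induced libraries were uneven, with 31 of their 62 reads in induced 2. The log2 change was 2.79 (SE 0.54, 95% interval 1.65 to 3.94, edgeR's adjusted p = 1.97e-04). Without induced 2 it was 2.39 (edgeR's adjusted p = 0.00114). The interval spans 3.13-fold to 15.3-fold, so that the rise of Tnnt1 was far less precisely measured than that of Tnnt2.

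Tnnt3, the fast skeletal troponin T (ENSMUSG00000061723, chromosome 7, 142498836 to 142516009, plus strand), had 13, 9 and 11 reads in control and 13, 14 and 8 reads in induced libraries. The groups overlapped. The log2 change of 0.14 did not pass the test (edgeR's adjusted p = 0.769), and its 95% interval allows a fold between 0.618 and 1.97.

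Of the troponin I genes, which inhibit contraction at low calcium, none passed the test. Tnni3, the cardiac isoform (ENSMUSG00000035458, chromosome 7, 4518305 to 4524229, minus strand), had 32, 29 and 29 reads in control and 35, 37 and 43 reads in induced libraries. Its levels did not overlap, at 1.45 to 1.62 CPM in control and 1.86 to 2.25 CPM in induced libraries. The log2 change of 0.41 (SE 0.24, 95% interval -0.09 to 0.92) nevertheless had an adjusted p of 0.144 in edgeR, and between 0.134 and 0.327 over the alternatives. Separation of the groups by itself was frequent here, since 68.6% of all tested genes did not overlap. Of the 8 tested troponins and light chains, 4 (Tnnt2, Tnnt1, Tnni3 and Myl7) did not.

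Tnni1, the slow skeletal and embryonic troponin I (ENSMUSG00000026418, chromosome 1, 135779434 to 135810989, plus strand), had 9, 14 and 7 reads in control and 9, 16 and 11 reads in induced libraries, which overlap. Its log2 change was 0.32 (95% interval -0.57 to 1.20, edgeR's adjusted p = 0.525). Tnni1 lies just upstream of Tnnt2 on the same strand, and the 2 genes differed in outcome, although the difference between their fold changes was not tested. Tnni2, the fast skeletal troponin I (ENSMUSG00000031097, chromosome 7, 142441808 to 142444410, plus strand), had 5 reads in induced 2 and 0 reads in the other 5 libraries, and was not tested.

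Tnnc1, the calcium sensor of heart and slow fibres (ENSMUSG00000091898, chromosome 14, 31208312 to 31211729, plus strand), had 24, 19 and 33 reads in control and 31, 28 and 16 reads in induced libraries. The groups overlapped fully, at 1.28 ± 0.35 and 1.32 ± 0.43 CPM (SD, n = 3). The log2 change was 0.04 (95% interval -0.63 to 0.72, edgeR's adjusted p = 0.916), which allows a fold between 0.644 and 1.65. That interval does not reach the fold of Tnnt2, whose own interval begins at 3.95. Tnnc2, the fast skeletal troponin C (ENSMUSG00000017300, chromosome 2, 164777161 to 164779967, minus strand), had 0 reads in all 6 libraries. Of its 800 exon bases, 592 (74.0%) also belong to Ube2c on the opposite strand, a cell cycle gene with 3737 reads in control and 901 in induced libraries. The strand setting of the count is not stated, so a count of 0 for Tnnc2 may miss reads of the shared stretch.

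Myl7, the atrial regulatory light chain (ENSMUSG00000020469, chromosome 11, 5896637 to 5898782, minus strand), had 0 reads in each control library and 34, 20 and 20 reads in induced libraries. Every induced library was thus above every control library, and induced 2 did not stand apart. Against 3 counts summed over the control group, Myl7 was at least 25.7-fold higher in induced cells (edgeR's adjusted p = 1.38e-06). With at most 34 reads a library, its level was 1.30 ± 0.44 CPM (SD, n = 3). In the whole table, 51 genes had 0 reads in all control libraries and at least 10 in every induced library, Myl7 among them.

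Myl4, the atrial and embryonic essential light chain (ENSMUSG00000061086, chromosome 11, 104550663 to 104595753, plus strand), had 48, 49 and 40 reads in control and 35, 72 and 43 reads in induced libraries. The lowest and the highest value were from induced cells, so that the groups overlapped. The log2 change was 0.19 (95% interval -0.35 to 0.73, edgeR's adjusted p = 0.536), and without induced 2 it was -0.16 (edgeR's adjusted p = 0.612). The 2 atrial light chains therefore differed in outcome in these libraries: Myl7 was read in induced cells only, and Myl4 was present in control cells at 2.31 ± 0.27 CPM and had no detectable change at this depth. The difference between them was not tested.

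**Figure D2:**
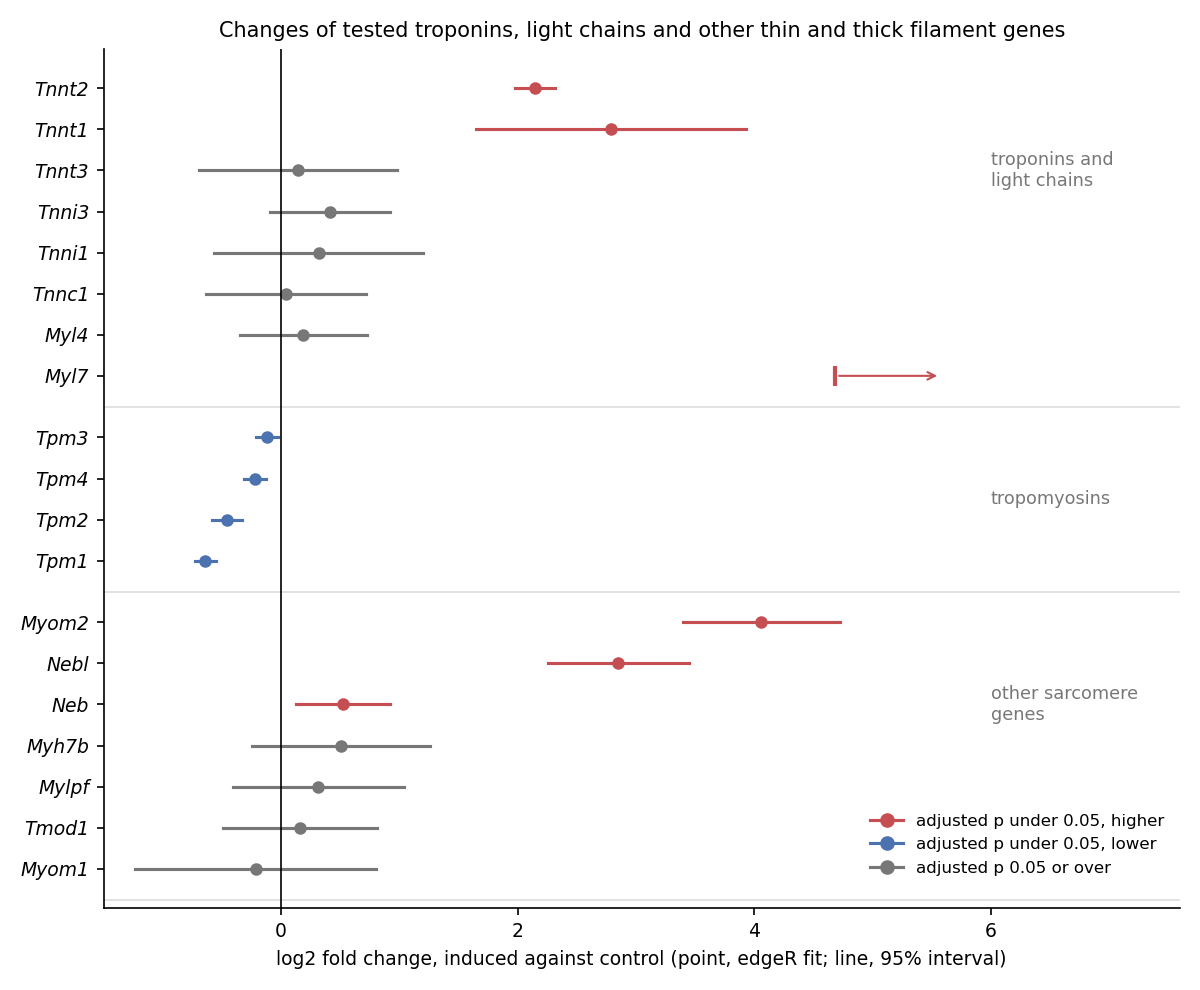
Log2 fold changes of induced against control cells from edgeR for the 8 tested troponins and light chains, the 4 tropomyosins and 7 other tested sarcomere genes, with 95% intervals and, for Myl7, an arrow from its lower bound of 25.7-fold. Tnnt2, Tnnt1 and Myl7 lie to the right, the tropomyosins between -0.64 and -0.12, and the intervals of Tnnt3, Tnni3, Tnni1, Tnnc1 and Myl4 cover 0.

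Levels of different genes were compared per length. By the deposited FPKM (fragments scaled to gene length and library size), control cells ranked Tnnt2 first at 1.68 ± 0.21, then Tnnc1 at 1.22 ± 0.33, Tnni3 at 0.73 ± 0.04, Myl4 at 0.49 ± 0.06, Tnnt3 at 0.35 ± 0.06, Tnni1 at 0.14 ± 0.05 and Tnnt1 at 0.07 ± 0.04 (SD, n = 3). Only Tnnt2 and Tnnc1 overlapped with their neighbour in that order. In induced cells Tnnt2 stood at 7.49 ± 0.26, above Myl7 at 2.20 ± 0.74, Tnnc1 at 1.27 ± 0.41, Tnni3 at 0.98 ± 0.10, Myl4 at 0.57 ± 0.22, Tnnt1 at 0.49 ± 0.24, Tnnt3 at 0.39 ± 0.11, Tnni1 at 0.18 ± 0.05 and Tnni2 at 0.06 ± 0.10. There Tnnc1 overlapped with Tnni3, Myl4 with Tnnt1, Tnnt1 with Tnnt3 and Tnni1 with Tnni2. All these levels except that of Tnnt2 in induced cells lay below the median of tested genes. The median FPKM of tested genes was 5.01 in control and 5.11 in induced cells, and Tnnt2 exceeded 27.6% of tested genes in control and 59.3% in induced cells.

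The deposited length decides part of this order. The deposited gene length equals the union of all annotated exons, which is 7752 bases for Tnnt2 and 4637 for Myl4, while their longest coding transcripts have 1200 bases in 16 exons and 943 bases in 8 exons. For Myl7 both lengths are 590 bases. With the longest coding transcript as length, chosen after these lengths were seen, Tnnt2 stood at 10.9 ± 1.35 CPM per kilobase in control and 48.5 ± 1.60 in induced cells. Second in induced cells was then Myl4 at 2.79 ± 1.08, which overlapped with Tnni3 at 2.21 ± 0.23, and Tnni3 with Myl7 at 2.21 ± 0.74. Whether Myl7 or Myl4 is the more abundant atrial light chain in induced cells thus depends on the length used. Tnnt2 was first under both.

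The make-up of each family was computed per library from these levels. Tnnt2 took 77.3%, 79.3% and 83.5% of troponin T in control and 91.5%, 85.7% and 91.2% in induced libraries. Every induced library was above every control library, and the mean rose by 9.46 percentage points (exact permutation test, two-sided, p = 0.1, the smallest that 3 against 3 allow). The share of Tnnt3 was 16.6 ± 1.77% in control and 4.64 ± 1.32% in induced cells (SD, n = 3, exact permutation p = 0.1), while its reads summed to 33 and 35. With the longest coding transcript as length the share of Tnnt3 was 4.45 ± 0.58% and 1.14 ± 0.34%, a difference of -3.30 percentage points in place of -11.9 (exact permutation p = 0.1). By that length Tnnt2 took 93.3% to 95.6% in control and 95.5% to 97.6% in induced libraries, which overlap, and the difference was 2.54 percentage points (exact permutation p = 0.2).

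Within troponin I, the cardiac gene Tnni3 took 84.1 ± 5.07% in control and 81.4 ± 10.1% in induced libraries (SD, n = 3, exact permutation p = 0.8), and the lowest value, 69.7%, was that of induced 2, where Tnni2 took 13.0%. Troponin C was Tnnc1 in all libraries. Of the atrial light chains, Myl4 was the whole in control libraries. Myl7 took 88.4%, 68.6% and 78.5% in induced libraries by the deposited length and 60.8%, 30.8% and 42.6% by the longest coding transcript. With 0 reads of Myl7 in every control library the direction of this share was fixed, so no test is given. Both lengths put the share of Myl7 lowest in induced 2, the library with the most Myl4.

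**Figure D3:**
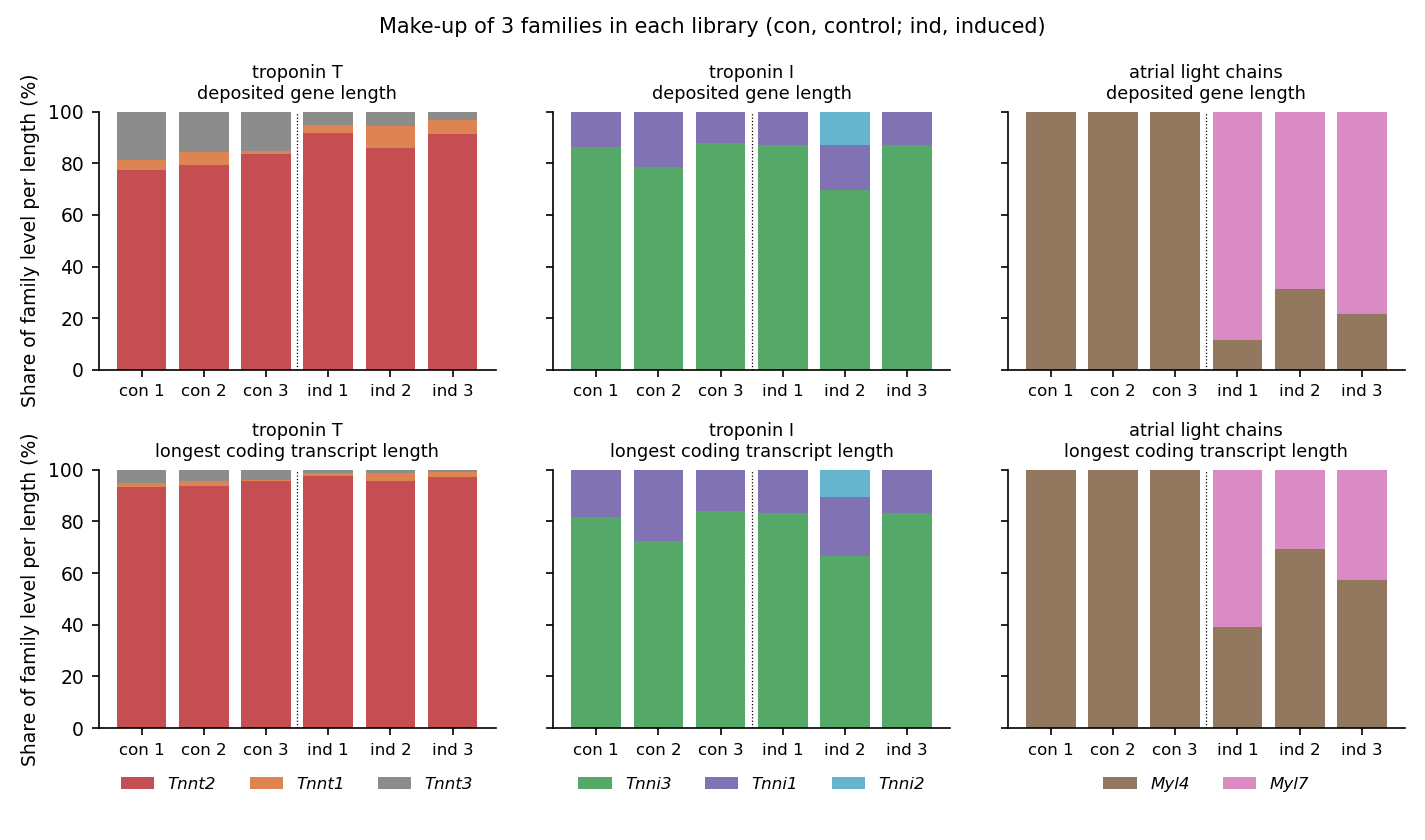
Share of each gene in its family's summed level per length in each library, for troponin T, troponin I and the atrial light chains, with the deposited gene length (top) and the longest coding transcript (bottom). Tnnt2 holds most of troponin T in all 6 libraries, Tnni2 appears in induced 2 alone, and Myl7 appears in the 3 induced libraries only, with a share that depends on the length used.

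Induced 2 differed from the other induced libraries in some skeletal muscle genes. These genes were singled out after their values were seen. Myl1, the essential light chain of fast skeletal muscle, had 1, 55 and 1 reads in the 3 induced libraries and 0 in every control library. Acta1, skeletal actin, had 17, 123 and 1 reads, and Myh3, the embryonic myosin heavy chain, had 1, 25 and 0. The myogenic factors Myod1 and Myog had 1, 14 and 1 reads and 3, 19 and 0 reads, and 0 in every control library. Over the 13 skeletal muscle markers, reads summed to 377, 544 and 308 in induced libraries and to 242, 263 and 252 in control libraries. Of the 11 markers with induced reads, 6 were highest in induced 2. The best read markers, Actn3 and Des, were not concentrated there, whereas Acta1, the next best read, was. Actn3 had 223, 221 and 190 reads in the induced libraries, Des had 91, 94 and 98, and Mylpf had 39, 33 and 14. In the whole table, 8 genes had at least 10 reads in induced 2 and at most 1 in each other library, among them Myl1, Myh3 and Myod1, against 0 or 1 such gene for every other library.

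Tnnt1, Tnnt3, Tnni1, Tnni2 and Myl4 were highest in induced 2 among the induced libraries, 5 of the 9 genes with reads there. Of all tested genes, 37.8% were highest in induced 2. Tnnt2, Tnni3 and Myl7 had 32.2%, 32.2% and 27.0% of their induced reads in it and did not follow. The part of the skeletal muscle genes of induced 2 in the values of Tnnt1 and Myl4 was not tested beyond leaving out that library.

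**Figure D4:**
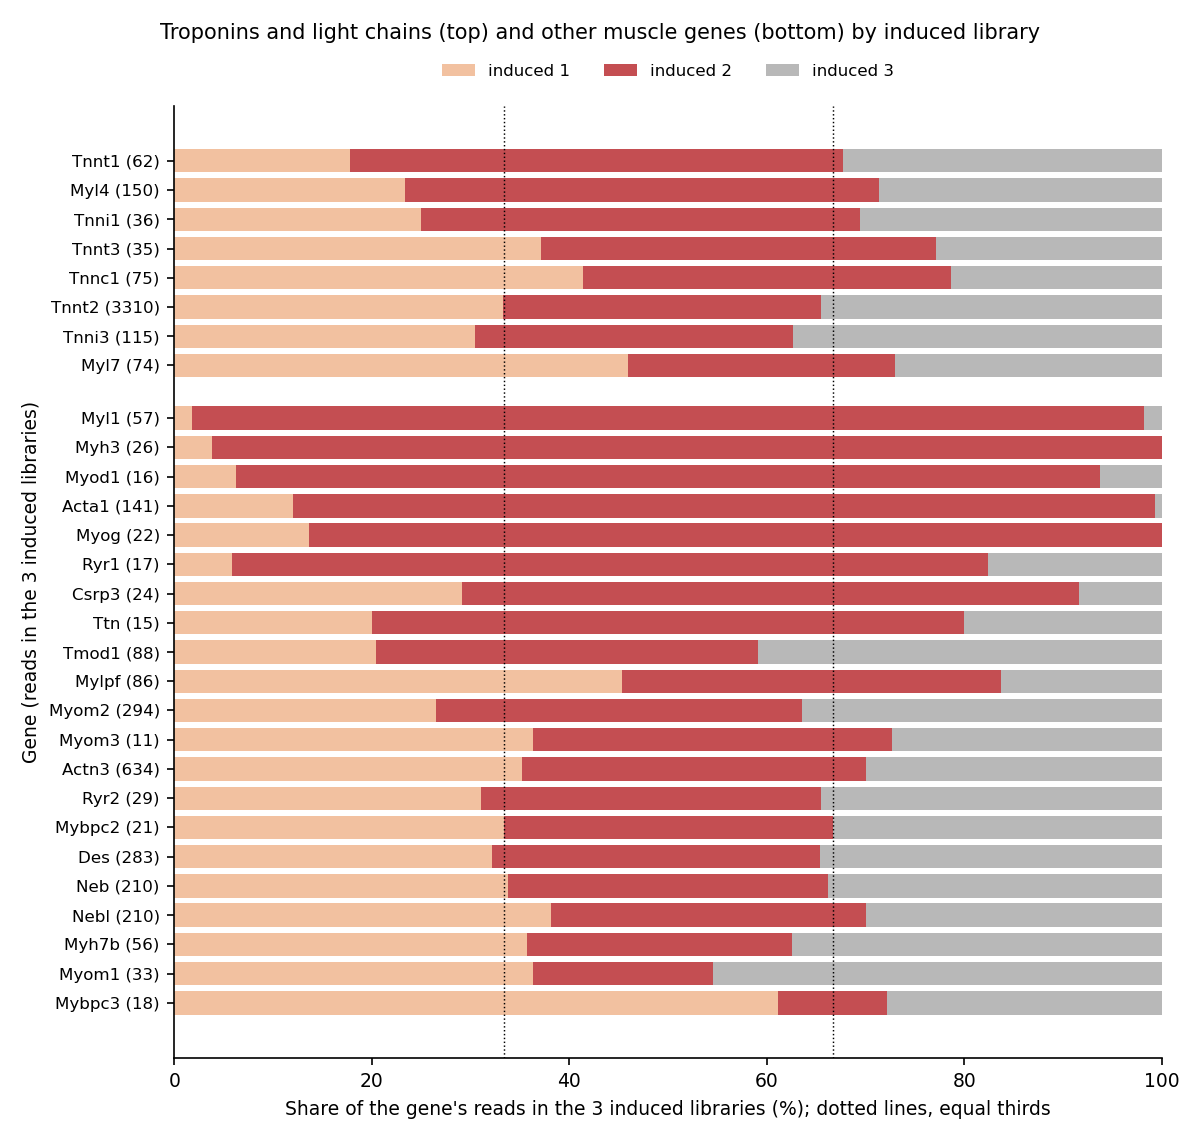
Share of each gene's reads that came from induced 1, 2 and 3, for the troponins and light chains (top) and for other sarcomere, cardiomyocyte and skeletal muscle genes with at least 10 induced reads, 1 gene left out (bottom), with the reads in brackets. Myl1, Myh3, Myod1, Acta1 and Myog had 86.4% to 96.5% of their reads in induced 2, while Tnnt2 and Myl7 were not concentrated there.

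Sarcomere genes other than the 10 were mostly below the filter. Of 29 such genes, 8 were tested, of which 4 were higher, 0 lower and 4 did not pass the test (median log2 change 0.52, against -0.01 over all tested genes). The 4 called of 8 are a smaller share than the 64.8% called among all tested genes, and a larger one than the 32.6% called higher. Myom2, Nebl and the called gene not named here passed the filter on low counts through the induced libraries only. The share called higher and the median change were therefore partly set by the filter. Myom2, a protein of the M-band that joins thick filaments, rose from 0.30 ± 0.18 to 5.16 ± 0.88 CPM (log2 change 4.06, SE 0.32, edgeR's adjusted p = 2.05e-09). Nebl (nebulette), which binds actin at the cardiac Z-disc, rose by 2.85 in log2 (SE 0.28, edgeR's adjusted p = 6.45e-08). Neb, nebulin of skeletal thin filaments, rose by 0.52 (SE 0.19, edgeR's adjusted p = 0.0217). Without control 1 or control 3 the call of Neb was lost (edgeR's adjusted p = 0.0651 and 0.0744). The myosins that pair with the cardiac light chains had next to no reads. Myh6 had 0 in control and 1 in induced libraries, Myh7 had 3 and 4, and the ventricular light chains Myl2 and Myl3 had 2 and 0 each.

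Tropomyosin, the partner that troponin T holds, went the other way. All 4 tropomyosin genes were called lower, as were 32.2% of all tested genes. Tpm1 fell from 713 ± 7.50 to 458 ± 13.9 CPM (log2 change -0.64, SE 0.04, edgeR's adjusted p = 2.44e-10) and Tpm2 from 119 ± 5.37 to 86.9 ± 6.07 CPM (log2 change -0.46, SE 0.06, edgeR's adjusted p = 1.88e-06). Tpm4 changed by -0.22 (SE 0.04, edgeR's adjusted p = 2.43e-04) and Tpm3 by -0.12 (SE 0.04, edgeR's adjusted p = 0.0277), and the call of Tpm3 was lost in 6 of 11 other fits and at a threshold of 0.01. These genes also serve non-muscle actin filaments. Per length Tpm1 remained far above troponin T, at 70.5 ± 2.15 FPKM in induced cells against 7.49 ± 0.26 for Tnnt2.

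Of 13 non-sarcomeric myosins and actins, 12 were tested, with 5 higher, 5 lower and 2 not past the test (median log2 change 0.05). Each direction holds 41.7% of the 12, against 32.6% higher and 32.2% lower over all tested genes. Myl9, the smooth muscle regulatory light chain, fell from 61.8 ± 3.01 to 20.2 ± 0.72 CPM (log2 change -1.61, SE 0.06, edgeR's adjusted p = 1.16e-13), and Myl12a, a non-muscle regulatory light chain, rose from 150.5 ± 2.07 to 276.6 ± 9.46 CPM (log2 change 0.88, SE 0.05, edgeR's adjusted p = 1.07e-11). Smooth muscle actin Acta2 (log2 change -0.95) and Actb (-0.54) fell, while Myh11, the smooth muscle myosin heavy chain, rose by 2.79 (edgeR's adjusted p = 3.74e-10). Regulatory light chains of the 3 kinds thus moved in different directions, Myl7 and Myl12a up and Myl9 down.

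Of 27 transcription factors known for muscle genes, 17 were tested, with 7 higher and 8 lower (median log2 change 0.10). That is 41.2% higher and 47.1% lower, against 32.6% and 32.2% of all tested genes. The Tead factors, the family that binds M-CAT boxes, were split. Tead2 fell from 98.9 ± 3.46 to 24.2 ± 0.70 CPM (log2 change -2.03, SE 0.06, edgeR's adjusted p = 1.24e-15), while Tead1 rose from 219.9 ± 2.72 to 347.7 ± 34.8 CPM (log2 change 0.66, SE 0.06, edgeR's adjusted p = 1.40e-08). Tead3 fell by 0.63 in log2 (edgeR's adjusted p = 1.51e-08), and Tead4 rose by 0.56 (edgeR's adjusted p = 0.0144), a call that was lost without control 1 (edgeR's adjusted p = 0.0599) and at a threshold of 0.01. Tead1, Tead3 and Tead4 were named after their values were seen. Srf, serum response factor, fell by 0.62 in log2 (edgeR's adjusted p = 4.81e-09) and its cofactor Mkl1 by 0.80 (edgeR's adjusted p = 2.79e-10). Mef2a rose by 0.82 (edgeR's adjusted p = 1.11e-09) and Gata4 by 0.59 (edgeR's adjusted p = 1.49e-09), both cardiac and muscle regulators. Nkx2-5 had 2 reads in control and 0 in induced libraries.

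Markers were examined beside these values. The cardiosphere cell markers Eng, Thy1 and Ly6a were present in all libraries, with a summed level of 503 to 508 CPM in control and 563 to 595 CPM in induced libraries. None of the 13 cardiomyocyte markers passed the filter, and their sum was 0.41 to 1.32 CPM in control and 1.00 to 2.26 CPM in induced libraries. Tnnt2 thus rose in libraries that held few reads of any gene of that list, which does not include Des. The best read of them in induced cells, Ryr2, had 1 read in control and 29 in induced libraries. Of 13 skeletal muscle markers, 3 were tested and Myf5 and Myh8 were at 0 in all libraries, with a sum of 12.3 to 13.4 CPM in control and 16.1 to 28.6 CPM in induced libraries. Des (desmin) was the only one of those called, from 0.23 ± 0.19 to 4.97 ± 0.15 CPM (edgeR's adjusted p = 1.28e-09), with 91, 94 and 98 reads in the induced libraries. The study stained desmin protein as a cardiac marker in its induced cells, so Des is not a marker of skeletal muscle alone. Des passed the filter on low counts through the induced libraries only. The 7 smooth muscle markers, all tested, summed to 1042 to 1101 CPM in control and 639 to 707 CPM in induced libraries. Of these, 3 were called higher (Smtn, Myh11 and Actg2) and 3 lower (Acta2, Cnn1 and Lmod1). Over all tested genes 64.8% were called, 32.6% higher and 32.2% lower. The sum was mostly Acta2, whose mean fell from 945 to 490 CPM. It therefore hides rises such as that of Smtn, from a mean of 104 to 174 CPM. Of the 6 endothelial markers none was tested, and of the 6 leukocyte markers Ptprc, Tyrobp, Cd52 and Itgam were at 0 in all libraries. Cd68, with 116 reads in control and 1659 in induced libraries, and Fcer1g, with 2 and 187, were called higher, as were 32.6% of all tested genes. Fcer1g passed the filter on low counts through the induced libraries only. The part of these cell types in the troponin values was not tested.

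Genes around the 10 were examined to show whether a change at a troponin was shared along the chromosome. Within 100 kb lay 81 other genes, of which 42 were tested, with 12 higher and 16 lower. That is 66.7% of them, close to the 64.8% of all tested genes, with a median log2 change of -0.08. Lad1, which lies between Tnni1 and Tnnt2, had 13 reads in each group and was not tested. The tested genes near that pair were Csrp1 and 2 others with log2 changes between -0.92 and 0.31, so that the rise of Tnnt2 was larger than that of any tested gene within 100 kb. Lsp1, which lies between Tnni2 and Tnnt3, fell from 52.9 ± 3.20 to 31.6 ± 3.95 CPM (log2 change -0.74, edgeR's adjusted p = 1.20e-07).

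The 3 other neighbours with the smallest p were Ube2c at Tnnc2 (log2 change -1.99, edgeR's adjusted p = 9.93e-15), Ctsd, the lysosomal protease cathepsin D, near Tnni2 (1.21, edgeR's adjusted p = 1.63e-14) and Nt5dc2 near Tnnc1 (-1.37, edgeR's adjusted p = 6.69e-13). H19, an imprinted noncoding RNA 59520 bases from Tnnt3, was picked out after its values were seen. It had 123, 91 and 114 reads in control and 1176, 2126 and 904 in induced libraries (log2 change 3.74, edgeR's adjusted p = 2.85e-10). Tnnt3 itself, between H19 and Lsp1, did not pass the test. Around Myl7, 5 of 7 tested genes were higher and 1 lower, with a median log2 change of 0.55. That is 85.7% called, against 64.8% of all tested genes, of which 32.6% were called higher. Whether so few genes at 1 locus differ from the whole table was not tested. Around Myl4, none of 3 tested genes passed the test.

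**Figure D5:**
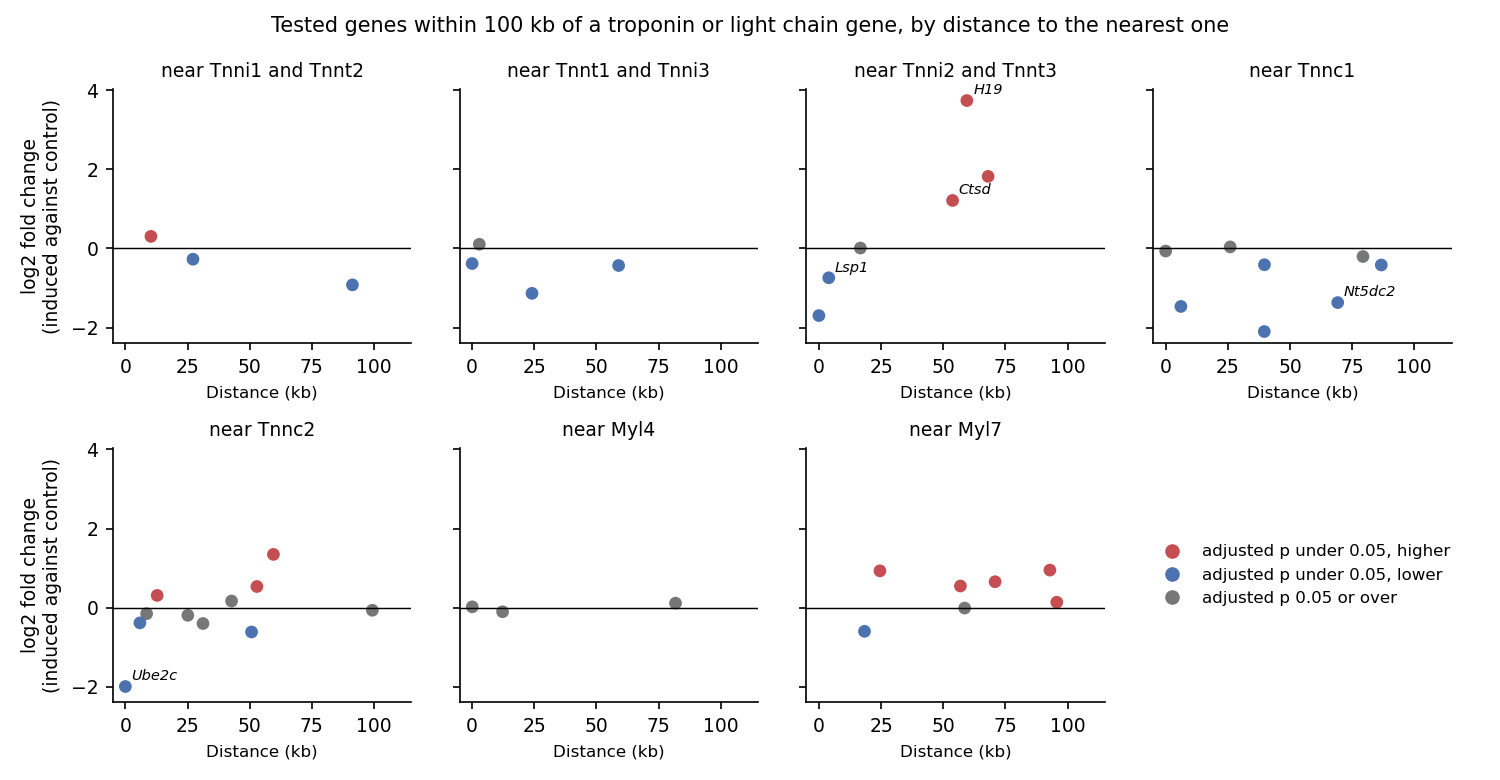
Log2 fold change of each tested gene within 100 kb against its distance in kilobases to the nearest of the 10 genes, in a panel for each locus, with genes called higher in red and lower in blue. H19 stands highest at 3.74, the 3 tested genes near Tnni1 and Tnnt2 lie between -0.92 and 0.31, and the 3 near Myl4 are not called.

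The genes most like Tnnt2 across the 6 libraries, by the distance between log2 CPM profiles centred on their own means, were Dmrt2 (distance 0.14), Xaf1 (0.18) and the linker histone gene Hist1h1c (0.20). Dmrt2, a DM-domain transcription factor of the embryonic somite, had 638, 533 and 693 reads in control and 2620, 2770 and 2608 in induced libraries, a log2 change of 2.16 beside 2.15 for Tnnt2. Xaf1 rose by 2.21 and Hist1h1c by 2.18. None of the other 9 troponins and light chains was among them.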

How the data were processed

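The authors deposited 1 table of counts, whole numbers of reads for each gene in each library, without normalization. The same table holds the authors' FPKM values (counts scaled to the deposited gene length and to library size). Its columns of the authors' own fold changes and p-values, and the deposited Gene Ontology tables, were not used. The submitters' processing notes name HISAT2 2.0.5, featureCounts 1.5.0-p3, DESeq2 1.16.1 and mm10 without saying their roles, and no strand setting is given. The deposited coordinates of the 10 genes equal GENCODE M21 (GRCm38).

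The counts were fitted with edgeR 4.0.16 in R 4.3.3. The filterByExpr filter (at least 10 reads, 15 in total) kept 14246 genes holding 99.9% of the reads. After TMM scaling, induced and control libraries were compared by the quasi-likelihood test (two-sided), and p-values were adjusted by Benjamini-Hochberg over all genes tested, with a threshold of 0.05. The standard error is the log2 change divided by the root of F, and the fit has a prior count of 0.125. Where control libraries held 0 reads, the fold is a bound against 3 counts over the group. Family shares were compared by exact two-sided permutation tests over libraries. The settings varied were the tool (DESeq2 1.42.0), the scaling (median-ratio size factors or library totals), the filter (none), a block for the replicate number, the threshold (0.01), the libraries used and, for shares, the unit (counts, CPM per kilobase) and the length (longest coding transcript).

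The 10 genes and all lists were chosen with earlier results of these data known. Named beside them are up to 5 called genes per list with the smallest p, genes lying between a pair of the 10, the 3 other neighbours with the smallest p and the 3 genes nearest to Tnnt2. Of stretches of 50 bases in their annotated transcripts, 47.9% of those of Tnnc2 and at most 1.69% of those of each of the other 9 genes also occur in another gene, so that reads there may have been lost or split. Counts were simulated for 14246 genes of this comparison, most of them unchanged, with the same biological spread for every gene. There edgeR recovered 89.6% of genes changed by 1 and 99.0% of those changed by 2 on the log2 scale. DESeq2 recovered 76.0% and 94.0%. These rates pool genes of all depths and do not describe genes with few reads or the uneven spread of these libraries. Of the sarcomere genes, 1 is counted but not reported here by name. Promoter windows are from RefSeq (GRCm38.p6).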

Additional observations from a re-analysis of the deposited data

How the results depend on the processing

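The calls of Tnnt2, Tnnt1 and Myl7 held under every alternative run, and no other troponin or light chain was called under any of them. Myl4 and Tnnc1, neither of them called, changed sign: Myl4 without induced replicate 2, and Tnnc1 without control replicate 2, induced replicate 1 or induced replicate 2. Of the 396 values for 36 named genes in 11 other fits, 387 kept their call and direction or stayed without a call, and 9, those of Neb, Tpm3 and Tead4, lost it. At a threshold of 0.01 the same 3 genes lost their calls. With no filter on low counts, all 24 sarcomere partners with reads were tested and 8 were called, in place of 4 of 8 tested. The additions were Acta1, Myl1, Myh3 and Mybph, whose induced reads were mostly in induced 2. The share of all genes called in that fit is not given, so the 8 are not set against it. The share of Tnnt2 in troponin T rose by 2.31 percentage points in raw counts and by 2.54 with the longest coding transcript as length, against 9.46 by deposited length, and from 8.07 to 11.3 leaving out each library. The share of Myl7 in the atrial light chains rose by 34.3 and 44.7 percentage points in place of 78.5, and from 73.6 to 83.5 leaving out each library. Only the size of this rise could vary, since no control library held a read of Myl7. The share of Tnni3 changed by -2.73 percentage points and by 3.09 without induced replicate 2. Replicate numbers did not pair the samples, since deviations of same-numbered libraries correlated at -0.002, -0.0151 and 0.0273. With a replicate block, 9063 genes were called in place of 9225, and the block changed no call among the 10 genes. The settings moved the median of all genes by at most 0.06 (log2). Tnnt3 and Tnni1 had 7 to 16 reads per library, and their 95% intervals reach 1.97-fold and 2.30-fold, so that rises up to those folds are not excluded.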
